A study of Homo sapiens with 3 samples.

Results

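Interferon-stimulated genes are the genes that cells switch on when an interferon is sensed, and 41 of them other than the OAS and MX families were followed here in gemcitabine-resistant bladder cancer cells. The 41 were listed by symbol, from sensors and signalling factors through to antiviral effectors, and all 41 were found among the 29960 genes of the deposited table. The cells were 5637, an established human bladder cancer line, either parental (5637P, labelled WT) or gemcitabine resistant (5637GR). Gemcitabine is a nucleoside analog that blocks DNA synthesis, and the resistant line was raised by stepwise exposure to it and then kept without the drug, so all libraries are labelled untreated. Single-cell clones were grown and their polyadenylated RNA was sequenced. Read counts were used for 3 labelled libraries: parental 1, resistant 1 and resistant 2. By the study's design text, 3 clones of each line were analysed. The columns of 3 further libraries, by their headers 2 parental and 1 resistant, have no sample label here and were not used. With the 1 parental library used, the spread between parental clones was not estimated, and what is particular to that clone and what is common to the parental line cannot be told apart in these values. The authors' group means of normalized counts, which take in the 3 libraries and others, are given beside them without an error.

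Type I and type III interferons bind their receptors at the cell surface and activate the kinases JAK1 and TYK2, which phosphorylate STAT2 among others. Phosphorylated STAT2 enters a complex with IRF9 that binds the interferon-stimulated response element (ISRE) in the promoters of target genes. The response to interferon gamma runs mainly through another element, the gamma-activated site (GAS). The targets code for proteins that sense viral RNA, block entry, translation and assembly of viruses, or dampen the response itself.

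The libraries held 14475531 reads on genes in parental 1, 15836788 in resistant 1 and 17461941 in resistant 2. Levels are given as CPM (the reads of a gene relative to the total of its library), scaled by the TMM method, and 3 reads, taken as the floor, correspond to 0.214, 0.184 and 0.172 CPM in the same order. All 9 epithelial markers examined had reads, with a summed level of 9975 CPM in parental 1, 7436 in resistant 1 and 7569 in resistant 2. The basal keratin KRT5 changed most among them, with 3829, 160 and 240 reads and a log2 fold change, resistant over parental, of -4.53. The authors' group means gave KRT5 a log2 ratio of -2.49. In the other epithelial markers the log2 fold change ranged from -1.06 (KRT7) to 0.13 (EPCAM). Leukocyte markers summed to between 0.570 and 1.22 CPM with 4 of 5 found, and endothelial markers to between 0.427 and 2.01 CPM with 3 of 4 found. Fibroblast markers summed to 113, 97.3 and 61.1 CPM, nearly all of it COL1A1, while LUM had no read and COL3A1 had 0, 0 and 2 reads. The part of these markers in the results below was not tested.

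The interferon-stimulated genes did not share a direction. In all, 6 members were at least 2-fold above the parental library in resistant 1 and resistant 2 alike (HERC5, USP18, IFI44L, SAMD9L, GBP1 and IFI27), 3 were at least 2-fold lower in both (IFITM2, IFITM3 and ISG20), and the other 27 of the 36 members with enough reads for a test were neither. No member passed an adjusted p under 0.05 in either direction (edgeR quasi-likelihood test, Benjamini-Hochberg over 15782 genes), against 0.456% of all genes tested called higher and 0.722% called lower. The lowest adjusted p of a member was 0.0973, for HERC5. At an unadjusted p under 0.05, 5 members were higher (GBP1, HERC5, IFI44L, SAMD9L and USP18) and 4 were lower (DDX58, IFITM2, IFITM3 and ISG20), against 4.94% and 5.01% of all genes. DESeq2 called none of the 35 members to which it gave an adjusted p, against 1.67% of all genes called in either direction. The spread in this test comes from the 2 resistant libraries and the trend over all genes, and the lone parental library is assumed to vary like them.

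The median log2 fold change of the 36 members, resistant over parental, was -0.02, beside 0.02 over all genes tested. Of the 36 members, 18 had a positive and 18 a negative value. The median was 0.24 when resistant 1 alone was set against the parental library and -0.26 for resistant 2 alone, so its sign depended on the library. In both resistant libraries 12 members were above and 13 below the parental library, and 11 (30.6%) were above in one and below in the other, as were 30.3% of all genes. The standard error of the log2 fold change had a median of 0.48 over the members, and for 27 of 36 the 95% interval held 0. A 2-fold excess in both resistant libraries was found for 16.7% of the members and 4.94% of all genes, and a 2-fold deficit for 8.33% and 3.62%. GBP1 and IFI27 passed the filter on low counts only through the resistant libraries, as IFIT1 did through resistant 1, and so had to be higher there. The resistant libraries share 1 parental library, and their agreement is therefore no independent repeat.

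**Figure D1:**
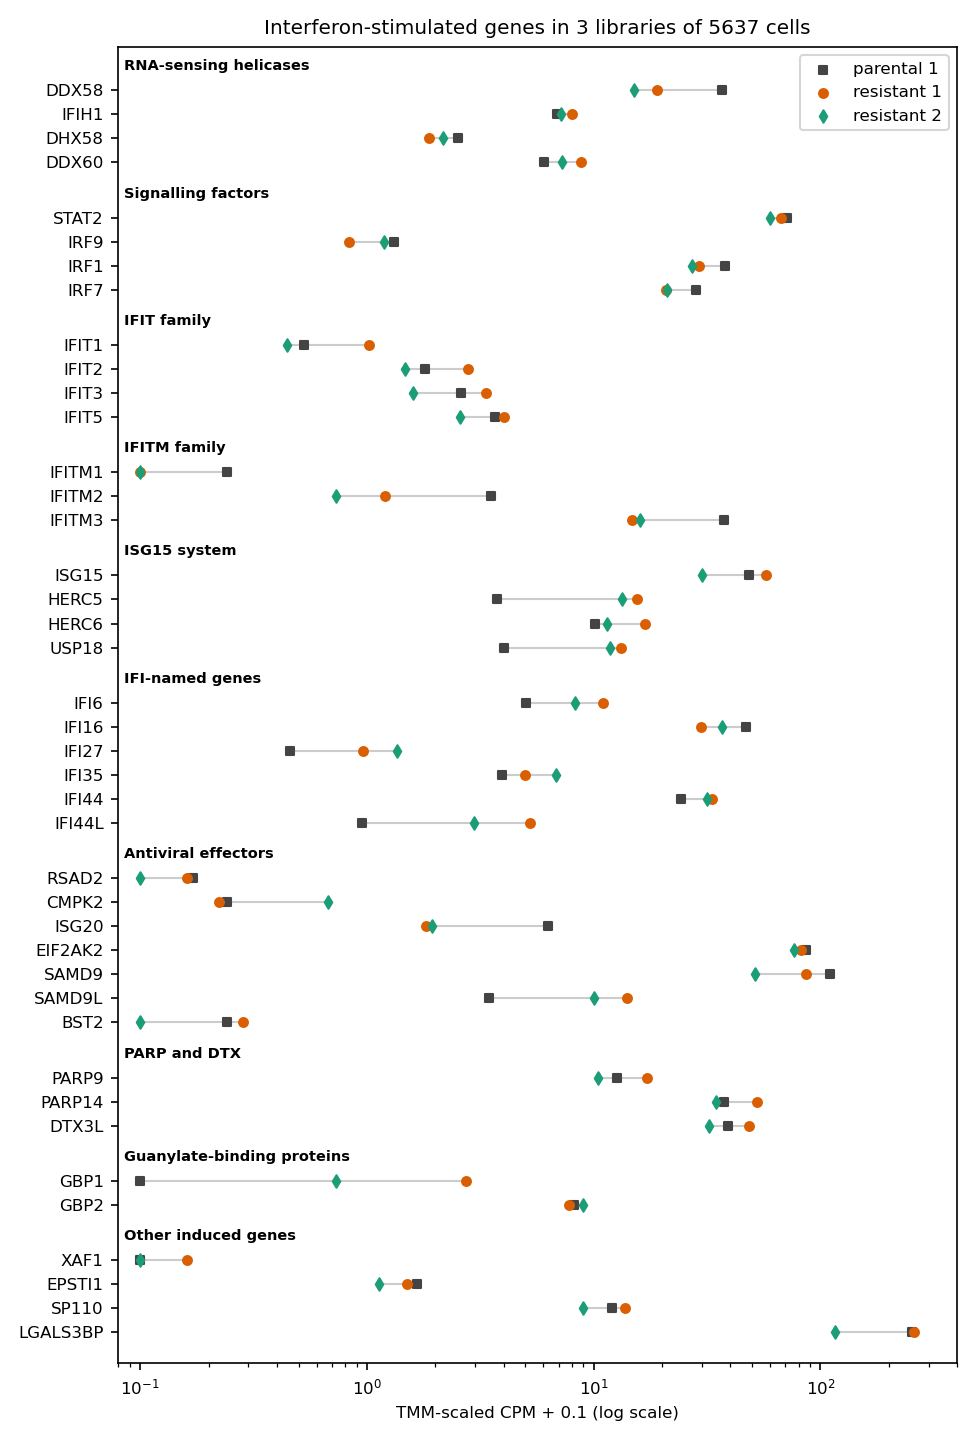
TMM-scaled CPM plus 0.1, on a log axis, of the 41 members in parental 1 (squares), resistant 1 (circles) and resistant 2 (diamonds), by role, with a grey line from the lowest to the highest library. HERC5, USP18, SAMD9L and IFI44L lie to the right of the parental library in both resistant libraries, IFITM2, IFITM3 and ISG20 to the left, and most other members have their 3 points close together.

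The conjugation system of ISG15, a ubiquitin-like protein, held 2 of the 6 members that were higher in both. HERC5 (ENSG00000138646, hg19 chr4:89378268-89427314), the main ligase that attaches ISG15 to newly made proteins, had 51 reads in parental 1, 252 in resistant 1 and 231 in resistant 2, or 3.63, 15.4 and 13.2 CPM. Both resistant libraries lay well above the parental library and differed from each other by 1.17-fold. Its log2 fold change was 1.98 ± 0.49 (SE; 95% interval 0.91 to 3.04; adjusted p = 0.0973), and the authors' group means gave a log2 ratio of 1.35. USP18 (ENSG00000184979, hg19 chr22:18632666-18660164), the protease that removes ISG15 and also restrains signalling at the type I receptor, had 55, 214 and 204 reads, or 3.92, 13.1 and 11.7 CPM. Its log2 fold change was 1.66 ± 0.49 (adjusted p = 0.189), and the group means gave 1.15. Again the resistant libraries were near each other and apart from the parental library.

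ISG15 itself (hg19 chr1:948803-949920) was not among them. It had 675, 934 and 520 reads, or 48.1, 57.2 and 29.8 CPM, so that the parental library lay between the resistant ones (log2 fold change -0.14 ± 0.42). Its authors' group means were nearly equal, at 628.8 in the parental and 623.7 in the resistant group. HERC6, a relative of HERC5 encoded beside it, had 10.0, 16.7 and 11.3 CPM and a log2 fold change of 0.48. Among HERC5, HERC6, USP18 and ISG15, the gene for the modifier thus stayed within 2-fold of the parental library in both resistant libraries while a ligase and the protease did not.

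Of the 6 genes with IFI names, 5 were above the parental library in both resistant libraries, as were 34.6% of all genes. IFI27 is among the 5 and had to be higher, since it passed the filter only through the resistant libraries. The median log2 fold change of the 6, IFI27 included, was 0.77, and 0.34 by the group means. IFI44L (ENSG00000137959, hg19 chr1:79085607-79108484) had 12 reads in parental 1, 84 in resistant 1 and 50 in resistant 2, or 0.854, 5.14 and 2.86 CPM. The excess was 6.02-fold in resistant 1 and 3.35-fold in resistant 2, with a log2 fold change of 2.22 ± 0.73 (adjusted p = 0.269) and 2.40 by the group means. IFI44, its neighbour and relative, had 24.3, 33.2 and 31.3 CPM, a log2 fold change of 0.41. The group means gave it a larger value of 0.98.

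IFI27, which codes for a small mitochondrial protein, had only 5, 14 and 22 reads. Its log2 fold change of 1.55 had an interval from -0.61 to 3.72, and its group means gave 0.25. IFI6, of the same family as IFI27, had 4.91, 10.9 and 8.14 CPM (log2 fold change 0.95 ± 0.49), an excess of 2.22-fold in resistant 1 and 1.66-fold in resistant 2. IFI35 had a log2 fold change of 0.59. IFI16, a nuclear DNA sensor, went the other way, with 46.9 CPM in parental 1, 29.5 in resistant 1 and 36.6 in resistant 2. Its log2 fold change was -0.50, and -0.89 by the group means.

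SAMD9 and SAMD9L are neighbouring paralogs that restrict poxviruses and restrain translation, and their values differed in direction. SAMD9L (ENSG00000177409, hg19 chr7:92759368-92777682) had 47 reads in parental 1, 227 in resistant 1 and 174 in resistant 2, or 3.35, 13.9 and 9.97 CPM. Both resistant libraries lay well above the parental library, with a log2 fold change of 1.83 ± 0.52 (adjusted p = 0.163) and 1.29 by the group means. SAMD9 (hg19 chr7:92728829-92747336) had 110, 86.0 and 51.1 CPM and a log2 fold change of -0.68 ± 0.39 (adjusted p = 0.648). Its parental library was the highest of the 3.

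GBP1 and GBP2 code for guanylate-binding proteins, large GTPases that attack the membranes of intracellular pathogens and are typical targets of interferon gamma. GBP1 (ENSG00000117228, hg19 chr1:89518002-89531043) had no read in parental 1, 43 in resistant 1 and 11 in resistant 2, or 0, 2.63 and 0.630 CPM. Against a floor of 3 reads in the parental library, the mean of the resistant libraries was at least 7.64-fold higher (adjusted p = 0.147). The resistant libraries were 4.18-fold apart, and against the same floor resistant 2 alone gave 2.95-fold. The authors' group means were 0.662 in the parental and 17.8 in the resistant group. GBP2 had 8.12, 7.72 and 8.82 CPM, with 114 or more reads in every library and a log2 fold change of 0.03.

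**Figure D2:**
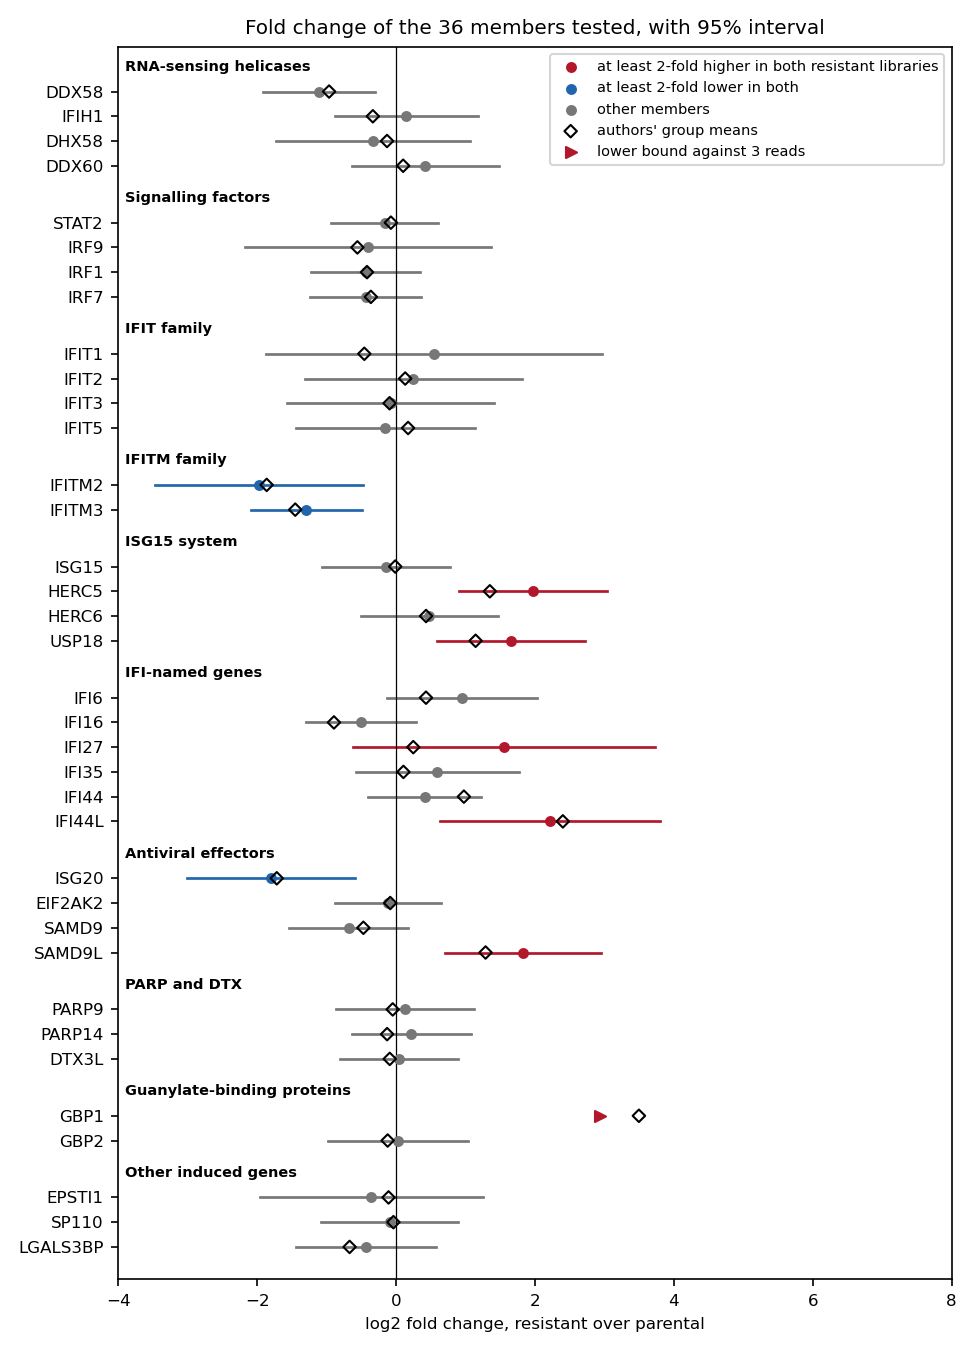
Log2 fold change, resistant over parental, of the 36 members tested, by role (points, with 95% intervals of the edgeR fit as lines), beside the log2 ratio that the authors' group means give (open diamonds). GBP1 is drawn as a lower bound against 3 reads; the intervals of HERC5, USP18, IFI44L and SAMD9L lie above 0, those of IFITM2, IFITM3, ISG20 and DDX58 below it, and the other 27 hold 0.

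The members that were lower in both resistant libraries belonged to the IFITM family and the effectors. IFITM proteins sit in membranes and hinder the fusion of enveloped viruses with the cell. IFITM3 (ENSG00000142089, hg19 chr11:319669-327537) had 525 reads in parental 1, 239 in resistant 1 and 278 in resistant 2, or 37.4, 14.6 and 15.9 CPM. Both resistant libraries were less than the parental library by over 2-fold, with a log2 fold change of -1.29 ± 0.36 (95% interval -2.08 to -0.50; adjusted p = 0.165) and -1.45 by the group means. IFITM2 (ENSG00000185201, hg19 chr11:307631-315272) had 48, 18 and 11 reads, or 3.42, 1.10 and 0.630 CPM, and a log2 fold change of -1.97 ± 0.68 (adjusted p = 0.309). IFITM1 had 2 reads in the parental library and none in the resistant libraries, below the filter. The IFITM genes are near-identical in sequence and IFITM1 lies within the span of IFITM2 in the table, so how reads were divided among them is uncertain.

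ISG20 (ENSG00000172183, hg19 chr15:89179384-89199714), an exonuclease that degrades viral RNA, had 87, 28 and 32 reads, or 6.19, 1.71 and 1.83 CPM. The parental library exceeded resistant 1 by 3.61-fold and resistant 2 by 3.38-fold, and the log2 fold change was -1.80 ± 0.55 (adjusted p = 0.225), with -1.72 by the group means. EIF2AK2, the kinase PKR that halts translation on sensing double-stranded RNA, had 85.9, 82.1 and 76.1 CPM and a log2 fold change of -0.12 ± 0.35. Its 3 libraries were close together, with 1206 reads or more in each. EIF2AK2 overlaps GPATCH11 in the table, and their reads cannot be told apart without strand. RSAD2 (viperin), its neighbour CMPK2 and BST2 (tetherin) were at 10 reads or fewer in every library, below the filter, as was XAF1.

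Among the RNA-sensing helicases, DDX58 (RIG-I, ENSG00000107201, hg19 chr9:32455300-32526322), which recognises viral RNA ends and signals through MAVS, stood apart. It had 513 reads in parental 1, 309 in resistant 1 and 260 in resistant 2, or 36.5, 18.9 and 14.9 CPM. Both resistant libraries lay below the parental library, by 1.93-fold and 2.45-fold, with a log2 fold change of -1.11 ± 0.37 (adjusted p = 0.281). IFIH1 (MDA5), the other main sensor, had 6.76, 7.90 and 7.10 CPM (log2 fold change 0.15). DDX60 had 5.91, 8.70 and 7.16 CPM (0.42), and DHX58 (LGP2), a regulator of both sensors, had 34, 29 and 36 reads (-0.33).

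All 4 signalling factors were below the parental library in both resistant libraries, as were 35.1% of all genes, and none by 2-fold. STAT2 had 71.3, 67.1 and 60.0 CPM, with a log2 fold change of -0.17 ± 0.35. IRF1, which drives part of the response to interferon gamma, had 37.9, 29.2 and 26.9 CPM (-0.43). IRF7, which amplifies type I interferon production, gave -0.44, and IRF9, the DNA-binding partner of STAT2, gave -0.40 from only 17, 12 and 19 reads. The intervals of all 4 held 0. IRF9 overlaps RNF31 in the table, and without a stated strand of counting their reads cannot be told apart.

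The IFIT family, whose proteins bind foreign RNA and block its translation, and the PARP9, PARP14 and DTX3L group, linked to the DNA damage response, had values that differed in sign between the resistant libraries. All 4 IFIT genes and all 3 of the latter were above the parental library in resistant 1 and below it in resistant 2. So were ISG15, SP110 and LGALS3BP, making 10 of the 36 members (27.8%) against 15.6% of all genes. This order of signs was picked after the values were seen. The neighbours of PARP9, PARP14 and DTX3L, given below, had the same order of signs, and those of the IFIT genes did not. The IFIT genes lie together on chromosome 10, and PARP9, PARP14 and DTX3L on chromosome 3. With both orders counted, 30.6% of the members and 30.3% of all genes differed in sign. The 95% counting interval of the log2 ratio to the parental library held 0 in both resistant libraries for the 4 IFIT genes, and in resistant 2 for PARP9 and PARP14. IFIT1 had 6, 15 and 6 reads, and IFIT3 had 35, 53 and 26. The resistant libraries were 2.67-fold and 2.18-fold apart on these genes, and IFIT5 was at 3.56, 3.92 and 2.46 CPM. IFIT1, IFIT2 and IFIT3 lie in the span of LIPA, which reached 36.6 CPM, and without strand the reads of LIPA cannot be told apart from theirs. PARP14 had 37.3, 52.3 and 34.7 CPM and DTX3L 39.1, 48.3 and 32.2 CPM, with log2 fold changes of 0.22 and 0.04. The group means gave them the other sign, at -0.13 and -0.09, and PARP9 likewise, with 0.13 by the fit and -0.05 by the means. PARP9 and DTX3L overlap in the table, with the same limit. Across all genes, 12.7% were at least 2-fold apart between the resistant libraries, and 4 of the 36 members were, namely GBP1, IFIT1, IFIT3 and LGALS3BP.

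LGALS3BP, a secreted glycoprotein, was the most abundant member per length in every library, at 102, 111 and 48.1 FPKM. It had 252, 259 and 116 CPM, so that resistant 2 alone was low, and its log2 fold change was -0.43 ± 0.46. ISG15 was next in every library, at 65.6, 82.9 and 41.9 FPKM. The order after these depended on the library, with IFITM3 at 44.9, 18.7 and 19.7 FPKM, STAT2 at 21.1, 21.1 and 18.3 and IFI44 at 14.0, 20.3 and 18.6. SP110, a nuclear body protein, had a log2 fold change of -0.09, and EPSTI1 had -0.36.

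**Figure D3:**
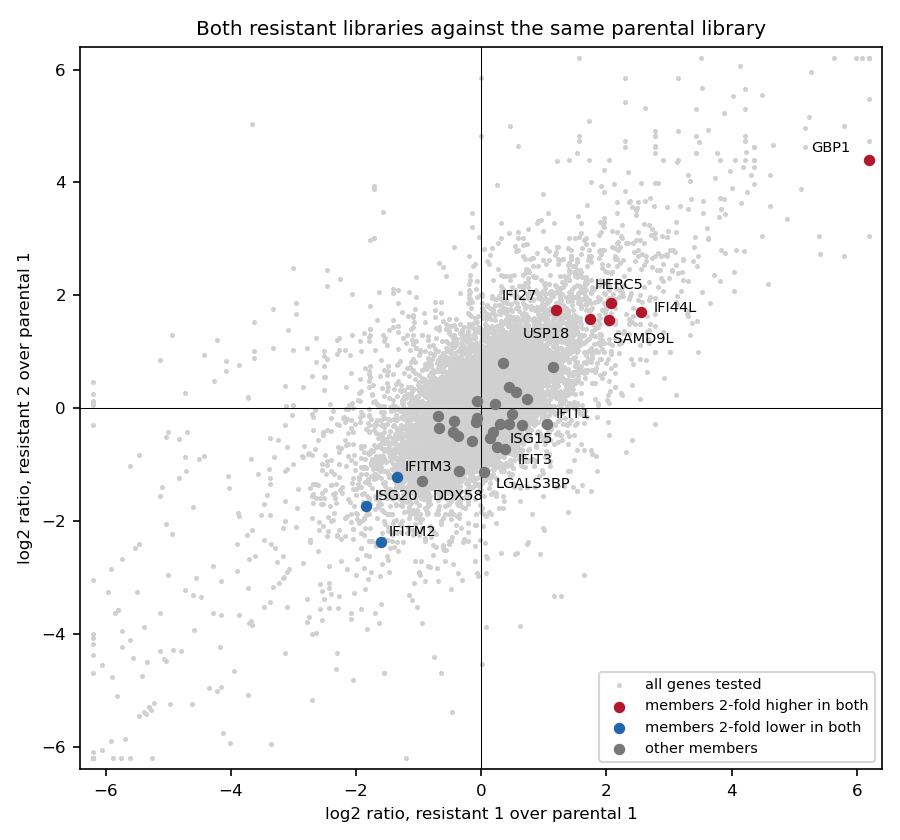
Log2 ratio of resistant 1 (x axis) and of resistant 2 (y axis) to the same parental library, for all 15782 genes tested (light grey) and the 36 members (coloured or dark grey); values beyond the axes, GBP1 among them, are set at the edge. The 6 members that are 2-fold higher in both lie in the upper right, the 3 that are 2-fold lower in both in the lower left, with DDX58 beside them, and other members lie nearer the centre or, as LGALS3BP, low in resistant 2 alone.

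The authors' group means gave the same named genes at both ends. By these means, 5 members were at least 2-fold higher (GBP1, HERC5, IFI44L, SAMD9L and USP18) against 4.23% of all genes, and 3 were at least 2-fold lower (IFITM2, IFITM3 and ISG20) against 3.34%. IFI27 was the member that was 2-fold higher in both libraries and not by the means. The sign of the group means matched that of the fit in 29 of the 36 members (80.6%), and in 84.0% of all genes. It differed in IFIH1, IFIT1, IFIT5, PARP9, PARP14, DTX3L and GBP2. The means include the 3 libraries, so they are no independent repeat.

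Promoters were searched to show where the ISRE lies in these genes, since it is the site that the complex of STAT2 and IRF9 binds. The ISRE core was written as TTTCNNTTTC, or GAAANNGAAA on the other strand, and the GAS core as TTCNNNGAA, which reads the same on both strands. RefSeq windows of 300 bases on GRCh38.p14, from 250 before the gene start to 50 after it, were at hand for 35 of the 41 members, one of them under the current symbol of DDX58. DHX58, GBP2, IFIT2, IFITM2, IRF7 and USP18 had no entry. The 35 genes had 45 windows, since some have several starts. An ISRE core was found in 27 of the 45 (60.0%), against 3.57% of all 35116 windows, and a GAS core in 11 (24.4%), against 7.66%. By gene, 24 of the 35 had an ISRE core and 10 a GAS core in any window. Matches to the ISRE core can overlap each other and the GAS core. Among the genes with a window, an ISRE core was held by 4 of 5 that were 2-fold higher in both resistant libraries, by 2 of 2 that were 2-fold lower, and by 15 of 23 that were neither. SAMD9L was the exception among the higher genes. GBP1 and IFI27, which held a core, passed the filter on low counts only through the resistant libraries and so had to be higher. The members were listed as interferon-stimulated genes, so a larger share than over all windows says nothing about resistance.

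The 180 bases before the gene start are printed below for 3 higher genes, for 2 lower genes and for ISG15 and IFIT1, which were neither, with the ISRE core in capitals, so that the element can be compared between genes that differed in direction.
HERC5 promoter, GRCh38.p14 chr4:88456939-88457118, plus strand: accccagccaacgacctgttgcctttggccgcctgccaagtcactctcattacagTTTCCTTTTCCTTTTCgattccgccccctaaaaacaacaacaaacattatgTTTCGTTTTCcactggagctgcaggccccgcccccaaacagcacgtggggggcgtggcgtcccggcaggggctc
IFI44L promoter, GRCh38.p14 chr1:78620268-78620447, plus strand: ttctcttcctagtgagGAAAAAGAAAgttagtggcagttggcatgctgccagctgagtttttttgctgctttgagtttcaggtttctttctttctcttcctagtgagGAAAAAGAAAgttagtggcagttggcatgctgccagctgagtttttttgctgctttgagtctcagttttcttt
GBP1 promoter, GRCh38.p14 chr1:89065209-89065388, minus strand: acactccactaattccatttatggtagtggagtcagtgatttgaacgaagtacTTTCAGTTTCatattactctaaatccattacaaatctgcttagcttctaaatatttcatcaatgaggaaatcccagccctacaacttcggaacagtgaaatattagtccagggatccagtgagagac
ISG20 promoter, GRCh38.p14 chr15:88638836-88639015, plus strand: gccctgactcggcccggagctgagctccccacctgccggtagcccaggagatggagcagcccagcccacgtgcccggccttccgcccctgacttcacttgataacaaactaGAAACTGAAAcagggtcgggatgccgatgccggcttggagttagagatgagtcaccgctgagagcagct
IFITM3 promoter, GRCh38.p14 chr11:320861-321040, minus strand: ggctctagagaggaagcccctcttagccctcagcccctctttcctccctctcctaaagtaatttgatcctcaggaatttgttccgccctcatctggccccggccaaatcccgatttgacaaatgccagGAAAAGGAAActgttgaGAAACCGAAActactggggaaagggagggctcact
ISG15 promoter, GRCh38.p14 chr1:1013317-1013496, plus strand: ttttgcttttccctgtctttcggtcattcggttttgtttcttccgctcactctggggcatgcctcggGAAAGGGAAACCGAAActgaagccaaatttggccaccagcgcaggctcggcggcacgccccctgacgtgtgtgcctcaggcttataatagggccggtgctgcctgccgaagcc
IFIT1 promoter, GRCh38.p14 chr10:89392443-89392622, plus strand: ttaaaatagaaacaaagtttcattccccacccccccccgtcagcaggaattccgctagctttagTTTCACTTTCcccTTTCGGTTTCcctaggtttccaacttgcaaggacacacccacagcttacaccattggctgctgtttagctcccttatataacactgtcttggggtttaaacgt
Within these bases HERC5, IFI44L, IFITM3, ISG15 and IFIT1 hold more than 1 match, overlapping each other in HERC5 and ISG15, and GBP1 and ISG20 hold 1. Every printed gene holds a core, so its presence in each direction follows from which genes were printed. SAMD9L, which was higher in both and held no core, was not printed, and GBP1 was bound to be higher by the filter.

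**Figure D4:**
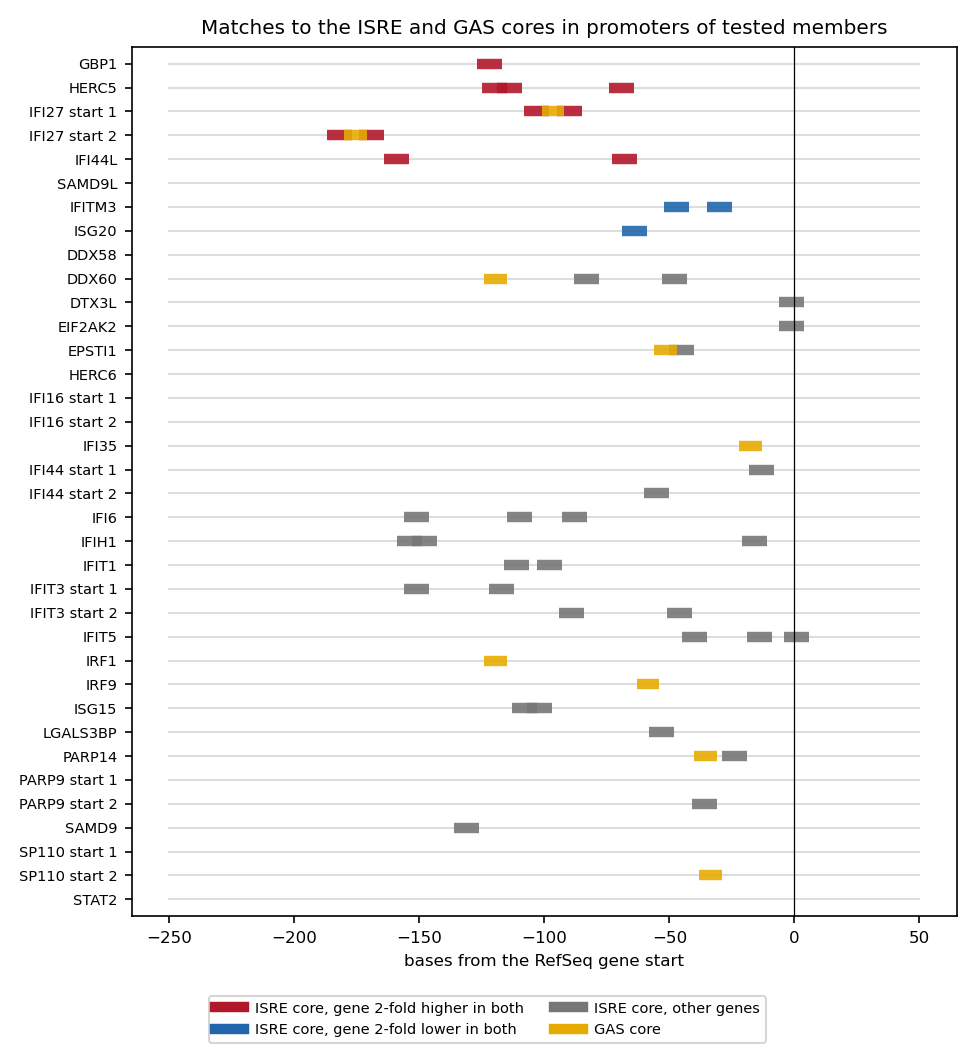
Position of the ISRE core (red, blue or grey) and the GAS core (yellow) in the promoter windows of tested members, in bases from the RefSeq gene start; genes with several starts have a line for each. Red marks genes at least 2-fold higher in both resistant libraries, blue genes at least 2-fold lower in both; matches of every colour lie mostly before the start.

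Several members lie beside genes whose own values moved the same way. The other tested genes within 1 Mb had a median log2 fold change of -0.65 around IFITM2 and IFITM3 (43 genes), -0.83 around ISG20 (13 genes) and -0.90 around DDX58 (17 genes). All 4 members were as low as these medians or lower. Around HERC5 the median was 0.73 (11 genes) and around HERC6 it was 0.69, while the neighbours of USP18 (0.04), IFI44L (-0.04), SAMD9L (0.11), IFI27 (0.18) and GBP1 (0.07) were near 0. The IFIT genes had neighbours with a median of 0.79 and values of their own from -0.16 to 0.55. The signalling factors STAT2 (-0.59), IRF7 (-0.61) and IRF1 (-0.32) also had neighbours below 0, and around IRF9 the median was 0.13. Other members had the opposite sign to their neighbours. Among these were IFIH1 (0.15 beside -0.56), IFI16 (-0.50 beside 0.07), SAMD9 (-0.68 beside 0.09) and LGALS3BP (-0.43 beside 0.21). By single resistant library, the neighbours of PARP9 had a median of 0.25 in resistant 1 and -0.31 in resistant 2. Those of PARP14 had 0.25 and -0.30, and those of DTX3L 0.25 and -0.30, in windows that overlap. These neighbours thus split in sign between the resistant libraries as the members themselves did. The neighbours of the IFIT genes were above 0 in both, at 0.95 and 0.44. How often a member and its neighbours shared a sign was not set against all genes. The part of the neighbours in these results was not tested.

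**Figure D5:**
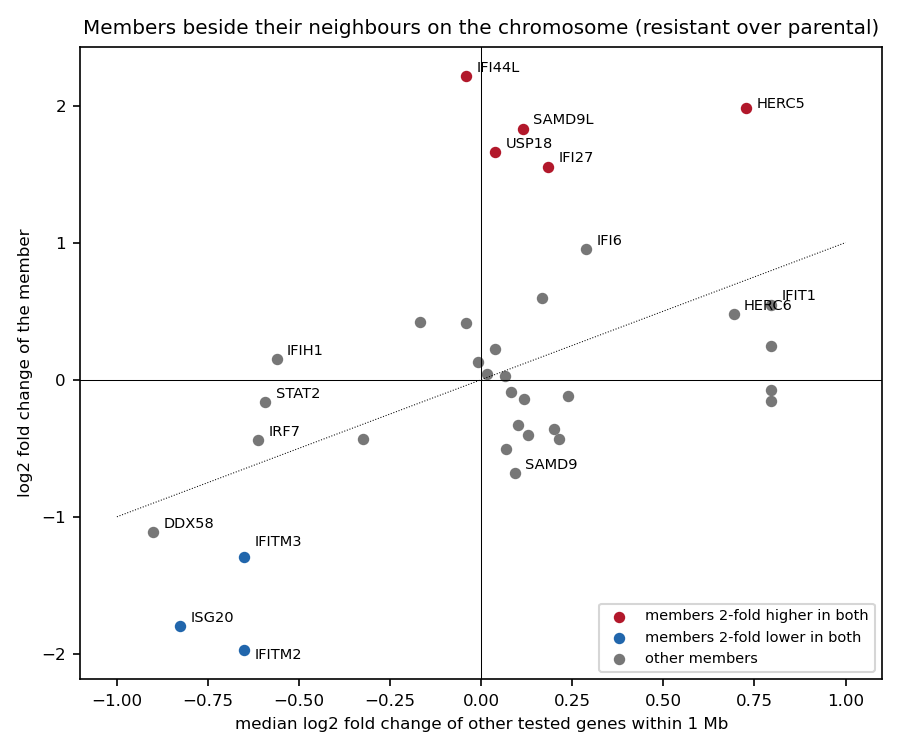
Log2 fold change of each tested member other than GBP1 (y axis) against the median log2 fold change of the other tested genes within 1 Mb (x axis), with a dotted line where they are equal. IFITM2, IFITM3, ISG20 and DDX58 lie at the lower left, HERC5 at the upper right, and IFI44L, SAMD9L and USP18 lie high above neighbours near 0.

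Genes upstream were read from the same fit over all genes, and none of the 10 receptors and kinases tested, the 9 induction adaptors or the 5 negative regulators had an adjusted p under 0.05. TYK2 had 230, 143 and 302 CPM and JAK1 119, 131 and 111 CPM, with log2 fold changes of -0.05 and 0.02. Among the adaptors, TRIM25, which ubiquitinates RIG-I, gave -0.11 and the transcription factor IRF3 -0.04. ADAR, which edits double-stranded RNA, gave -0.08, and the phosphatase PTPN2 0.08. These were the most abundant tested genes of their lists, and not all upstream genes were as near 0. The authors' group means gave log2 ratios of 1.00 for SOCS3, -0.73 for JAK2 and 0.73 for TICAM1, smaller in size than the fitted values below. Picked after their values were seen, 3 genes had an unadjusted p under 0.05. SOCS3, a feedback inhibitor of JAK kinases, had 249, 778 and 756 reads and a log2 fold change of 1.36 ± 0.39 (adjusted p = 0.172). JAK2, a kinase of the interferon gamma receptor, had 262, 151 and 171 reads and a log2 fold change of -0.97 ± 0.41 (adjusted p = 0.438). TICAM1, the adaptor of TLR3, had 404, 654 and 1797 reads and a log2 fold change of 1.31 ± 0.52 (adjusted p = 0.404), with resistant 2 far above the other libraries.

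Interferon genes themselves were hardly read. Of 7 found, only IFNE was tested, with 25, 9 and 15 reads and a log2 fold change of -1.32 (adjusted p = 0.670). IFNB1 and IFNL1 had 1 read each, both in resistant 2, IFNA1 had 4, 1 and 3, and IFNA2, IFNG and IFNL2 had none, which allows up to 0.214 CPM in the parental library. These floors cover counting error only.

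The OAS and MX families, which sense or trap viral material and belong to the same response, had other values. All 5 tested genes were below the parental library in both resistant libraries, as were 35.1% of all genes. Of the 5, 2 fell at an adjusted p under 0.05, against 0.722% of all genes called lower, and OAS2, OAS3 and MX1 did not pass. OAS1, which makes the messenger that activates RNase L, fell from 713 reads in parental 1 to 65 and 61 in the resistant libraries (log2 fold change -3.76 ± 0.39; adjusted p = 0.000528). MX2 fell from 137 reads to 12 in each (-3.76 ± 0.56; adjusted p = 0.00680). The difference between these families and the 41 members was not tested.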

How the data were processed

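Polyadenylated RNA of single-cell clones of 5637P and 5637GR was sequenced, and the authors deposited 1 table of genes. It holds raw read counts per library, which the authors deposited without normalization. FPKM values per library were also deposited by the authors. The group signal is the authors' mean of normalized counts, deposited without an error. The submitters' processing notes name CASAVA 1.8 and hg19; the aligner, counter, annotation and strand setting are not given in the sources used here. The table also has columns of 3 further libraries, by their headers 2 parental and 1 resistant; these 3 columns of read counts and 3 of FPKM could be tied to no sample label and were not used. A further 3 columns, which hold the authors' own comparison (a fold change on the log2 scale and p-values, raw and adjusted), were not used either.

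Read counts of the 3 labelled libraries were scaled by TMM and tested by edgeR 4.0.16 (glmQLFit and glmQLFTest, R 4.3.3), two-sided, on 15782 genes kept by filterByExpr (minimum count 10, about 0.612 CPM), with Benjamini-Hochberg adjustment. The residual degrees of freedom were 1, and the prior degrees of freedom, which weigh the trend over all genes, were 10.7. The steps were tested on simulated data. Log2 CPM ratios of single libraries used a prior count of 0.5, and group means a pseudocount of 1. Members with values per library were those called, at least 2-fold from the parental library in both resistant libraries, 2-fold apart by the group means or between the resistant libraries, or the 2 of highest mean CPM in their role group; other members given with values per library, and SOCS3, JAK2 and TICAM1, fall outside that rule and were chosen after their values were seen. The members and lists were chosen with earlier results of these data known. Whether the libraries are separate cultures beyond being labelled as clones was not checked. The p-values rest only on the spread between the resistant libraries and on the trend over all genes. Alternatives covered RLE size factors, DESeq2 1.42.0, other filters, prior counts, thresholds and folds, leaving out a resistant library, and the group means. Promoters came from RefSeq on GRCh38.p14, gene positions from the deposited table; no coordinates were converted. Values of 1 gene in the lists of upstream components are not reported here.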

Additional observations from a re-analysis of the deposited data

How the results depend on the processing

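The members called higher were 0 of 36 at an adjusted p under 0.05. Without a filter on low counts they came to 2 of 41, beside 273 of 26434 genes called higher. These were HERC5 (edgeR adjusted p = 0.0196) and GBP1 (0.000462), and GBP1 had no read in parental 1. At an adjusted p under 0.10 there was 1 (HERC5), beside 112 of 15782 genes. At an unadjusted p under 0.05, a threshold chosen after seeing the data, there were 5, beside 4.94% of all genes. The members called lower stayed at 0 except at the unadjusted p, with 4, beside 5.01% of all genes. The adjusted p of HERC5 ranged from 0.0196 to 0.190 over the alternatives that gave one. Over all genes, 72 of 15782 were called higher. That number was 122 by DESeq2, 112 at an adjusted p under 0.10 and 779 at the unadjusted p. It was 273 of 26434 without a filter and 12 of 13688 with at least 1 CPM in 2 libraries. Of all 15782 genes, 114 were called lower, and 790 at the unadjusted p. Without a filter 261 of 26434 were lower, and 10 of 13688 with at least 1 CPM in 2 libraries. At a fold of 1.5, 6 members were lower by the group means, against 3 at 2-fold. The share of all genes at a fold of 1.5 was not computed, so this rise cannot be read as particular to the members. The cause of these shifts was not tested. The median of the members was -0.26 without resistant replicate 1 and 0.24 without resistant replicate 2; leaving out either leaves no residual degree of freedom, so these are values without a test. RLE size factors shifted the median of all genes by 0.00993 on the log2 scale. No paired analysis was made, since the study describes independently derived clones and the labels name no pairs. Depth limits what can be said of the 5 members below the filter and of the 11 tested members with fewer than 50 reads in the parental library.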
